A study of Saccharomyces cerevisiae with 16 samples.

Results

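Of 5656 genes measured on the arrays, 367 carried only a systematic name in the probe annotation, and 34 of these are described here because their transcript signal at 300 s after a glucose pulse differed from the steady state before it by at least 1 on the log2 scale. A systematic name, such as YKR075C, gives a yeast gene's chromosome, arm, position and strand, and stands alone until the gene has been given a functional name. One further gene of this kind, YMR206W, was left out by the rule. They were chosen by the mean of the 3 arrays at 300 s and the mean of the 3 steady-state arrays, so every level or difference of those arrays is given as a description with no test. Of the 34 genes, 15 were higher and 19 were lower at 300 s. The split depends on the scaling: the same rule gave 18 higher and 14 lower after quantile normalization, 29 of them among the 34, and 18 higher and 15 lower after median centring, 30 of them among the 34. RefSeq's list of genes for the R64 assembly holds all 34, still without a functional name, and lists 1 of them, YOL153C, as a pseudogene.

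A yeast cell grown on scarce glucose respires it, keeps genes for other carbon sources and reserve carbohydrate active, and grows slowly. When glucose becomes plentiful, the kinases and repressors of glucose signalling switch such genes off, transcription of genes for ribosomes and biosynthesis is switched on, and short-lived messenger RNAs let both changes show quickly. Genes without a functional name are read here through what is known of their products, their sequence relatives, their neighbours and the way their transcripts move.

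RNA came from Saccharomyces cerevisiae CEN.PK 113-7D, a haploid laboratory strain, in aerobic, carbon-limited chemostats, fed with glucose and a little ethanol, kept at 30 °C and pH 5 and diluted at 0.05 per hour. Every group shared that strain and feed, and the labels give no difference between them but the time after the glucose pulse. The labels state that each time but 210 s came from separate cultures, 2 or more in number. Per the labels, the glucose left in the vessel went up to about 5.56 mM at the pulse. The steady state had 3 arrays, as did 120 s and 300 s after the pulse, while 30 s, 60 s and 330 s had 2 each and 210 s had 1. The 4 arrays at 30 s and 60 s together are called the first minute. Signals were rescaled so that the mean of each array after trimming 2% at each end was 150, with a floor of 12. The trimmed mean before rescaling ran from 82.8 to 326 over the 16 arrays. All 5 MATa-specific genes measured had signals well above the floor, with summed levels of 4458 to 8844, most of it from MFA1 and MFA2. The 4 MATalpha-specific genes summed to 344 to 514. Of these, MF(ALPHA)2 was at the floor on 14 of 16 arrays, while MF(ALPHA)1 at 184 to 372, SAG1 at 79.2 to 152 and STE3 at 28.6 to 56.9 never were. The MATa-specific STE2, at 143 to 253, overlapped MF(ALPHA)1.

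Experiment files deposited with the arrays disagree with the labels in places. The file of 300 s replicate 1 describes a glucose-limited culture with benzoic acid, and both 330 s files describe a sample from a 150-hour fermentation without mentioning a pulse. The groups follow the labels throughout. Arrays were handled on 6 days, and both 330 s arrays fell on a day that held no other array. In every comparison with 330 s, day and time therefore cannot be told apart. The 30 s, 60 s, 120 s and 300 s arrays of replicate 2 shared a day, as did all 5 arrays of replicate 3. The same holds for the 120 s and 210 s arrays of replicate 1, and for 300 s replicate 1 with steady-state replicate 2.

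In the choosing comparison, 300 s against the steady state, the 34 genes are, apart from YMR206W, those with only a systematic name among the 398 of 5410 tested genes past the threshold (7.36%), 209 higher (3.86%) and 189 lower (3.49%). All 34 passed the filter on dim genes, and 29 lay above the floor on all 16 arrays. The largest value was that of YKR075C at -3.78, followed by YJR115W at -2.81, YOR338W at 2.65 and YPL113C at -2.59. Just inside the threshold lay YHL026C, YML108W and YOR302W at 1.101, 1.108 and 1.144, and YOR186W, YPR084W and YKL107W at -1.004, -1.009 and -1.016. Just outside it lay YBL028C, YKR045C and YGR054W at 0.969, 0.911 and 0.894, and YGR127W, YPR003C and YOR292C at -0.992, -0.991 and -0.989. Membership thus turns on hundredths of a log2 unit for the last genes on the lower side. Without 300 s replicate 1, the array whose file names benzoic acid, 33 of the 34 stayed past 1 and YKL107W stood at -0.81. That array had moved least of the 3 at 300 s in 22 of the 34 genes, against 67.1% of all 398 genes past 1.

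The comparison whose means the choice left free set 330 s (2 arrays) against the first minute (4 arrays). Its spread was not free of the choice. In all tests here the spread was estimated from 15 arrays, those at steady state and 300 s among them. In this comparison 31 of the 34 genes changed, 14 of the 15 that were higher at 300 s rising and 17 of the 19 that were lower at 300 s falling (limma, Benjamini-Hochberg adjusted p under 0.05 over 5410 genes). Among all tested genes 15.9% rose, 24% fell and 39.9% did either. That excess of falls over all genes, with 860 rising and 1296 falling here, remained after quantile normalization, with 937 and 1264. It all but went after median centring, which sets the medians of the arrays equal, with 1038 and 1046. There 14 genes of the set rose and 16 fell. Of the other 286 tested genes with only a systematic name, 34 rose and 70 fell (36.4% together). The median log2 difference was 1.74 for the genes higher at 300 s and -1.45 for those lower at 300 s, beside -0.11 for all tested genes. All 34 differences had the sign seen at 300 s. With the fit limited to the 9 arrays at 30 s, 60 s, 120 s and 330 s, 31 genes of the set again changed. Limma's adjusted p was then larger for the steepest falls, at 1.05e-05 for YJR115W and YGR067C and 1.91e-05 for YKR075C. It was smaller for YLR036C, at 0.00676. Both 330 s arrays lay beyond all 4 first-minute arrays in 14 of 15 genes on the higher side, where 23.6% of all genes did so, and in 18 of 19 on the lower side, where 34.9% did. In a bulk culture, a change in the share of cells that hold a transcript and a change in its amount per cell cannot be told apart.

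**Figure D1:**
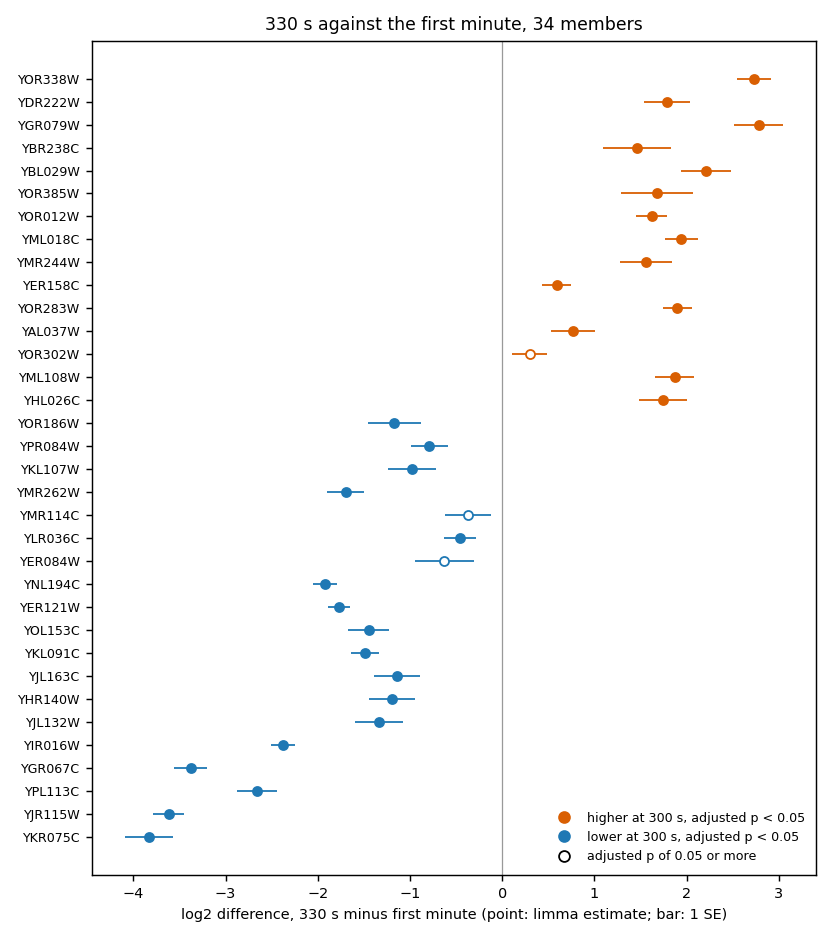
Log2 difference between 330 s (2 arrays) and the first minute (4 arrays at 30 s and 60 s) for each of the 34 genes, ordered by their difference at 300 s, with points for limma's estimate and bars for 1 SE. Filled points passed at an adjusted p under 0.05; the open points are YOR302W, YMR114C and YER084W, and the ends of the range are YKR075C at -3.83 and YGR079W at 2.78.

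The days of 2 replicates held both 300 s and first-minute arrays, namely replicates 2 and 3. Within them, 300 s minus the first minute had a median of 1.48 and 1.5 in the direction of the choice, with 28 and 29 of the 34 genes past 1. These 300 s arrays took part in the choice, which largely fixes that direction, so the values are a description and no check on the day of the 330 s arrays.

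Between the first minute and 330 s the steepest falls of the set were those of YKR075C, YJR115W and YGR067C. YKR075C encodes a protein similar to Reg1, the subunit that directs the Glc7 phosphatase in glucose repression. YKR075C had signals of 286, 293 and 247 at steady state, 302 and 206 at 30 s, 291 and 248 at 60 s, 212, 212 and 150 at 120 s, 93.2 at 210 s, 30.4, 19.7 and 13.2 at 300 s and 18.9 and 17.4 at 330 s. All 5 arrays at 300 s and 330 s lay below every earlier array, and the 210 s array lay between. At 330 s the mean was 18.2 ± 1.00 (SD, n = 2) against 262 ± 44.1 (SD, n = 4) in the first minute, a 14.3-fold fall (log2 -3.83 ± 0.26, limma adjusted p = 4.05e-08). YGR067C encodes a zinc-finger protein whose fingers resemble those of Adr1, an activator of genes for non-fermentable carbon. YGR067C had signals of 385, 316 and 365 at steady state, 378 and 321 at 30 s, 350.5 and 426 at 60 s, 352, 364 and 334 at 120 s, 226 at 210 s, 86.1, 54.6 and 73.4 at 300 s and 40.6 and 30.5 at 330 s. Up to 120 s all arrays lay between 316 and 426, and at 330 s both lay under the 3 arrays of 300 s. It fell 10.4-fold between the first minute and 330 s (log2 -3.38 ± 0.18, limma adjusted p = 2.46e-09).

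YJR115W, a duplicate of ECM13 with no known function, had the smallest adjusted p of the set. YJR115W had signals of 400.1, 308 and 389 at steady state, 383 and 397 at 30 s, 358 and 470.0 at 60 s, 258, 299 and 334 at 120 s, 119.9 at 210 s, 50.0, 48.4 and 57.5 at 300 s and 28.5 and 37.0 at 330 s. The 120 s arrays already lay below all 4 first-minute arrays, and the 210 s array lay below all of these. At 330 s it stood at 32.8 ± 6.0 (SD, n = 2), against 402 ± 48.3 (SD, n = 4) in the first minute, a 12.3-fold fall (log2 -3.62 ± 0.17, limma adjusted p = 5.43e-10). YIR016W is also of unknown function, and had a first-minute mean of 1064 ± 141 (SD, n = 4). YIR016W had signals of 1124, 992 and 996 at steady state, 1059 and 1264 at 30 s, 961 and 970.2 at 60 s, 986, 952 and 846 at 120 s, 593 at 210 s, 221, 278 and 274 at 300 s and 182 and 225 at 330 s. Its arrays up to 120 s stood between 846 and 1264, and those at 300 s and 330 s between 182 and 278, with 593 at 210 s between them. The fall at 330 s was 5.22-fold (log2 -2.38 ± 0.13, limma adjusted p = 4.79e-09).

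YPL113C belongs to the 2-hydroxyacid dehydrogenases, a family that includes glyoxylate reductases. YPL113C had signals of 456, 296 and 246 at steady state, 323 and 284 at 30 s, 323 and 283 at 60 s, 300.0, 265 and 225 at 120 s, 149.7 at 210 s, 64.6, 57.0 and 41.0 at 300 s and 51.5 and 44.3 at 330 s. One steady-state array, at 456, stood above the rest, and the groups at 300 s and 330 s stood apart from all arrays up to 120 s. It fell 6.34-fold at 330 s (log2 -2.66 ± 0.22, limma adjusted p = 3.84e-07). YKL107W, an aldehyde reductase, had signals of 25.7 and 34.6 at 330 s against 64.3, 52.5, 55.4 and 63.1 in the first minute, groups that did not overlap (log2 -0.98 ± 0.26, limma adjusted p = 0.00831). Without 330 s replicate 1 its difference was -0.76 and did not pass (limma adjusted p = 0.128). YOL153C, a pseudogene in RefSeq that resembles the carboxypeptidase CPS1, had 12 and 14.5 at 330 s, the lower at the floor, against 36.2, 32.5, 37.8 and 38.4 in the first minute. Its log2 difference of -1.45 ± 0.22 (limma adjusted p = 0.000106) is limited by the floor.

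YNL194C encodes a membrane protein of the Sur7 family, which sits in eisosomes, furrows of the plasma membrane. YNL194C had signals of 339, 310.4 and 382 at steady state, 454 and 399.6 at 30 s, 412 and 409 at 60 s, 311, 369 and 355 at 120 s, 228 at 210 s, 147, 147 and 168 at 300 s and 112 and 108 at 330 s. Its 120 s arrays lay below all 4 first-minute arrays, and from 210 s on every array lay below all earlier ones. The fall to 110.4 ± 3.00 (SD, n = 2) at 330 s, against 419 ± 24 (SD, n = 4) in the first minute, was 3.79-fold (log2 -1.92 ± 0.13, limma adjusted p = 2.23e-08). YKL091C is a homologue of Sec14, a phosphatidylinositol transfer protein, and stood at 103 and 91.9 at 330 s against 289, 250.1, 279 and 277 in the first minute. It fell 2.81-fold (log2 -1.49 ± 0.15, limma adjusted p = 2.82e-06). YHR140W, a predicted membrane protein, had 25.4 and 37.5 at 330 s against 73.7, 67.2, 69.1 and 74.3 in the first minute and fell 2.30-fold (log2 -1.20 ± 0.25, limma adjusted p = 0.0014). Its 300 s arrays, at 34.1, 28.6 and 18.7, spread more widely than its first-minute arrays.

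The remaining genes on the lower side have no role given here. YER121W fell 3.41-fold, with 233 and 194 at 330 s against 740.3, 682, 720.5 and 759 in the first minute (log2 -1.77 ± 0.12, limma adjusted p = 4.37e-08). YMR262W fell 3.26-fold, with 25.1 and 37.7 at 330 s against 103, 108, 88.4 and 103 in the first minute (log2 -1.70 ± 0.20, limma adjusted p = 1.04e-05). Neither pair of groups overlapped, and for both the 330 s mean lay below the 300 s mean. YJL132W and YJL163C fell 2.54-fold and 2.20-fold (limma adjusted p = 0.000742 and 0.00193). YJL132W already differed between its steady-state arrays, which read 88.4, 106 and 53.7. YOR186W and YPR084W fell 2.25-fold and 1.72-fold, relative to first-minute means of 32.8 ± 7.68 (SD, n = 4) and 59.3 ± 6.01 (SD, n = 4) (limma adjusted p = 0.00507 and 0.00637). Without 330 s replicate 1 neither passed (limma adjusted p = 0.0668 and 0.0551), nor did either with the series of array numbers as a block (limma adjusted p = 0.123 and 0.528), where YPR084W stood at -0.33. That block links the 330 s arrays to the other times only through steady-state arrays, which took part in the choice. With a floor of 24, YOR186W stood at -0.42 (limma adjusted p = 0.164).

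YLR036C had 18.5 and 18.4 at 330 s against 24.6, 22.9, 27.2 and 27.3 in the first minute, a log2 difference of -0.46 ± 0.17 that passed narrowly (limma adjusted p = 0.0434). It lost that call under 14 of 22 alternatives, among them each removal of a single 330 s or first-minute array, and stood at -0.10 with a floor of 24. YER084W and YMR114C did not pass. YER084W had 13.3 and 14.2 at 330 s and 14.0, 27.7, 19.7 and 26.4 in the first minute, overlapping groups close to the floor (log2 -0.63 ± 0.32, limma adjusted p = 0.135). Without 30 s replicate 2 its value was -0.87, the only 1 of 22 alternatives in which it passed, with 1 lone array left at 30 s. Without 30 s replicate 3 it was -0.38. With a floor of 24 it stood at -0.09, and with the series of array numbers as a block at -0.03 (limma adjusted p = 0.754 and 0.977). YMR114C had 41.4 and 51.8 at 330 s and 64.1, 61.5, 55.9 and 57.9 in the first minute, which did not overlap (log2 -0.37 ± 0.25, limma adjusted p = 0.266). With the series of array numbers as a block it stood at -1.27 (limma adjusted p = 0.00776), the only 1 of 22 alternatives in which it passed. That fit rests on the steady-state arrays used in the choice, of which replicate 1 shares the series of the 330 s arrays. After quantile normalization it stood at -0.30 (limma adjusted p = 0.413), and without 330 s replicate 1 at -0.21. Its steady-state arrays read 121, 68.4 and 61.5, the first of them well above the other two.

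**Figure D2:**
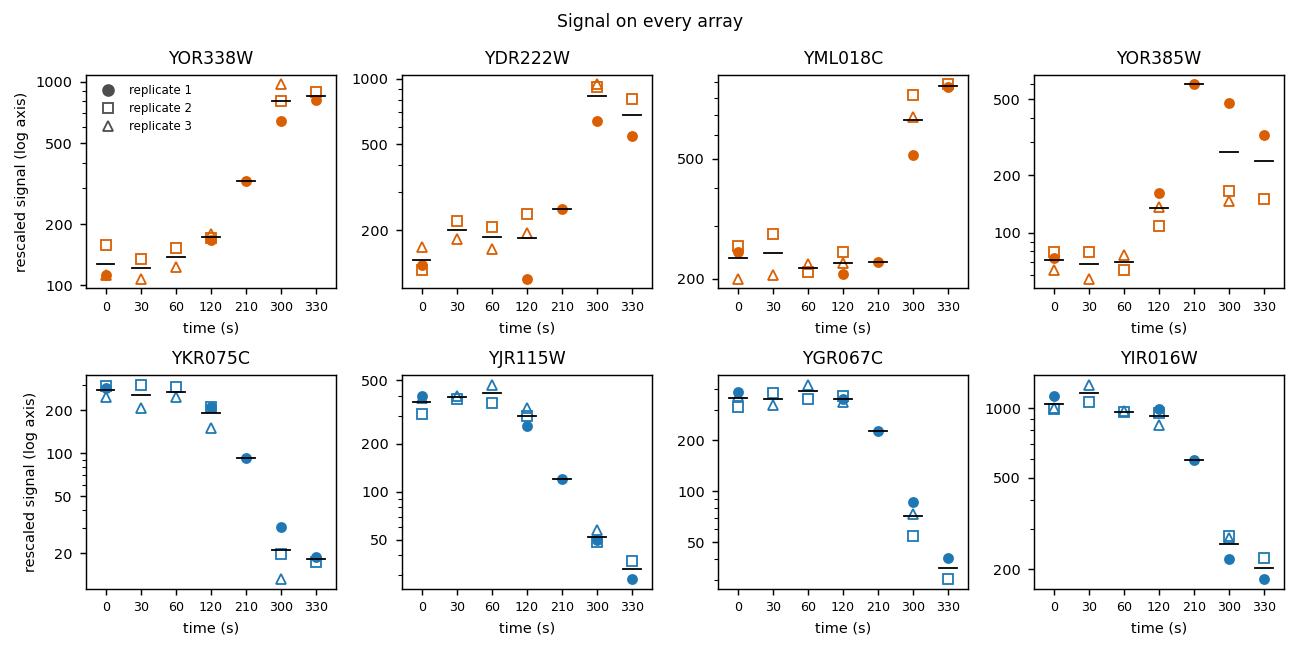
Rescaled signal on each of the 16 arrays for 4 genes that were higher (top) and 4 that were lower (bottom) at 300 s, on log axes against time in s, with a horizontal line at the mean of each time. Filled circles are replicate 1, squares replicate 2 and triangles replicate 3; YOR338W passes through 326 at 210 s, YML018C is still at 227 there, and YOR385W reads 601 at 210 s.

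Among the genes that rose, YOR338W was the highest at 300 s relative to steady state. Its function is unknown. YOR338W had signals of 113, 158 and 112 at steady state, 134 and 108 at 30 s, 152 and 123 at 60 s, 167, 170.3 and 179 at 120 s, 326 at 210 s, 643, 801 and 972 at 300 s and 816 and 887 at 330 s. The 3 arrays at 120 s lay above all 4 first-minute arrays, the 210 s array stood above those, and all later arrays stood above 210 s. It rose 6.64-fold to 852 ± 50.0 (SD, n = 2) at 330 s, against 129 ± 18.2 (SD, n = 4) in the first minute (log2 2.73 ± 0.18, limma adjusted p = 2.21e-08). YGR079W, also without a known function, rose 6.87-fold, the largest increase of the set in this comparison (log2 2.78 ± 0.27, limma adjusted p = 1.79e-06). YGR079W had signals of 65.3, 65.6 and 58.8 at steady state, 44.5 and 29.1 at 30 s, 75.8 and 55.0 at 60 s, 35.5, 49.3 and 46.9 at 120 s, 54.7 at 210 s, 191, 345 and 364 at 300 s and 262 and 419 at 330 s. Its first-minute arrays were uneven, but none of them came near the 5 arrays at 300 s and 330 s.

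YML018C and YOR283W encode proteins with a recognisable place or family. YML018C is a vacuolar membrane protein. YML018C had signals of 245, 257 and 200.3 at steady state, 281 and 205 at 30 s, 211 and 224 at 60 s, 207, 246 and 225 at 120 s, 227 at 210 s, 514, 819 and 692 at 300 s and 865 and 886 at 330 s. No array up to 210 s exceeded 281 and none from 300 s on was under 514, and the single 210 s array lay among the earlier ones. It rose 3.83-fold at 330 s (log2 1.94 ± 0.18, limma adjusted p = 7.67e-07). YOR283W is a phosphatase related to the phosphoglycerate mutases, and read 438 and 480.2 at 330 s against 124, 116, 132 and 121 in the first minute. It rose 3.73-fold (log2 1.90 ± 0.16, limma adjusted p = 3.12e-07), and its 330 s arrays stood above all 3 at 300 s.

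YBR238C encodes a mitochondrial protein and is a duplicate of RMD9, which binds mitochondrial messenger RNAs. YBR238C had signals of 17.2, 17.2 and 22.5 at steady state, 15.6 and 21.1 at 30 s, 18.5 and 15.3 at 60 s, 12, 16 and 15.6 at 120 s, 14.1 at 210 s, 44.6, 84.4 and 152 at 300 s and 34 and 67.5 at 330 s. The 120 s and 210 s arrays were among the lowest, and the 300 s arrays ran from 44.6 in replicate 1 to 152 in replicate 3. It rose 2.74-fold at 330 s (log2 1.46 ± 0.37, limma adjusted p = 0.00541), and without 330 s replicate 2 stood at 0.96 (limma adjusted p = 0.136). YER158C is similar to AFR1, which acts on signalling by the pheromone receptor. It had 467 and 443 at 330 s against 269, 349.7, 249 and 352 in the first minute, a 1.51-fold rise (log2 0.59 ± 0.16, limma adjusted p = 0.00815) that without 330 s replicate 1 was 0.56 and did not pass (limma adjusted p = 0.0741). Its steady-state arrays, at 212, 220.2 and 268, were lower than all 4 first-minute arrays in 2 of 3 cases.

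YDR222W and YBL029W are both of unknown function. YDR222W had signals of 139, 131 and 167 at steady state, 220.1 and 183 at 30 s, 208 and 164 at 60 s, 119.9, 238 and 195 at 120 s, 252 at 210 s, 636, 919.9 and 943 at 300 s and 546 and 808 at 330 s. Only the arrays at 300 s and 330 s stood clear of all others, and they overlapped each other. YDR222W rose 3.45-fold (log2 1.79 ± 0.25, limma adjusted p = 4.33e-05). YBL029W had 111 and 127 at 330 s, against 28.0, 28.4, 30.2 and 18.0 in the first minute, and rose 4.63-fold (log2 2.21 ± 0.27, limma adjusted p = 1.31e-05). At 210 s it already stood at 82.2, above all earlier arrays.

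Of the other genes of unknown function on the higher side, YHL026C rose 3.33-fold, with 140.2 and 186 at 330 s against 52.0, 54.2, 36.2 and 53.8 in the first minute (log2 1.74 ± 0.26, limma adjusted p = 8.21e-05). YOR012W rose 3.08-fold, with 172 and 239.9 at 330 s against 67.1, 59.9, 70.5 and 67 in the first minute (log2 1.62 ± 0.17, limma adjusted p = 3.48e-06). All its arrays up to 210 s lay between 56.2 and 75.6. YML108W and YMR244W were dim in the first minute, with means of 13.8 ± 2.41 (SD, n = 4) and 18.4 ± 2.31 (SD, n = 4). They rose 3.66-fold and 2.95-fold (limma adjusted p = 6.89e-06 and 0.000432). For YML108W, 1 of the 4 first-minute arrays was at the floor. YAL037W had 66 and 74.2 at 330 s against 35.4, 53.4, 44.8 and 33.8 in the first minute, a 1.70-fold rise (log2 0.77 ± 0.24, limma adjusted p = 0.0173). It did not pass without either 330 s array, without 30 s replicate 2 or 60 s replicate 3, or with the 30 s arrays alone as the first minute (log2 0.62 to 0.85, limma adjusted p = 0.0592 to 0.124).

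YOR302W is the upstream reading frame of CPA1, which encodes the arginine attenuator peptide and lies on the same messenger RNA as the small subunit of the arginine-specific carbamoyl phosphate synthetase. YOR302W had signals of 549, 618 and 791 at steady state, 778 and 608 at 30 s, 841 and 799 at 60 s, 713, 891 and 723 at 120 s, 791 at 210 s, 1268, 1216 and 1878 at 300 s and 820.4 and 1042 at 330 s. Its 300 s arrays stood above all others, and of its 330 s arrays 1 lay within the range of the first minute and 1 above it. The difference at 330 s did not pass (log2 0.30 ± 0.19, limma adjusted p = 0.229).

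YOR385W, of unknown function, split by pulse number. YOR385W had signals of 73.7, 79.4 and 64.1 at steady state, 79.5 and 57.6 at 30 s, 64.2 and 76.3 at 60 s, 161, 108 and 136 at 120 s, 601 at 210 s, 481, 166 and 147 at 300 s and 325 and 150.1 at 330 s. The arrays of replicate 1 read 161, 601, 481 and 325 from 120 s to 330 s, while those of replicates 2 and 3 lay between 108 and 166 over the same times. The file of 300 s replicate 1 is the one that names benzoic acid, and its part in this value was not tested. At 330 s the gene rose 3.21-fold over the first minute (log2 1.68 ± 0.39, limma adjusted p = 0.00273), and without 330 s replicate 1 its value was 1.13 (limma adjusted p = 0.105).

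The onset of these changes was looked for at 120 s, against the first minute. None of the 34 genes passed (limma), where 3 of all tested genes did (0.0555%; 0.037% up and 0.0185% down), and 5 had an unadjusted p under 0.05, where 223 of all genes did (4.12%). That 5 was 1 without 120 s replicate 1 and 10 with the replicate block. The 5 were YJR115W at -0.44 ± 0.15 (unadjusted p = 0.00962 in limma's fit), YOR385W at 0.95 ± 0.34 (0.0133), YOR338W at 0.43 ± 0.16 (0.0155), YNL194C at -0.28 ± 0.11 (0.0221) and YJL132W at -0.51 ± 0.23 (0.0401). For 4 of them, all but YJL132W, the 3 arrays at 120 s lay beyond all 4 first-minute arrays in the direction seen at 300 s. Over all tested genes such separation was found upward in 3.35% and downward in 4.92%. All 19 genes that were lower at 300 s had a mean difference below 0 at 120 s, with a median of -0.19, where 2935 of 5410 tested genes were below 0 and the median of all was -0.02. Of the 15 genes on the higher side, 7 were above 0, with a median of -0.02. Within single days this was not so for each gene: 16 of the 19 lay below 0 in replicate 2, where YMR114C, YER084W and YHR140W were above it, and 15 in replicate 3, where YMR114C, YKL107W, YPR084W and YOL153C were. Of all 5410 tested genes 3101 lay below 0 in replicate 2 and 2653 in replicate 3. YKR075C stood at -0.48 in replicate 2 and -0.59 in replicate 3, YJR115W at -0.31 and -0.37, and YOR338W at 0.26 and 0.64.

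**Figure D3:**
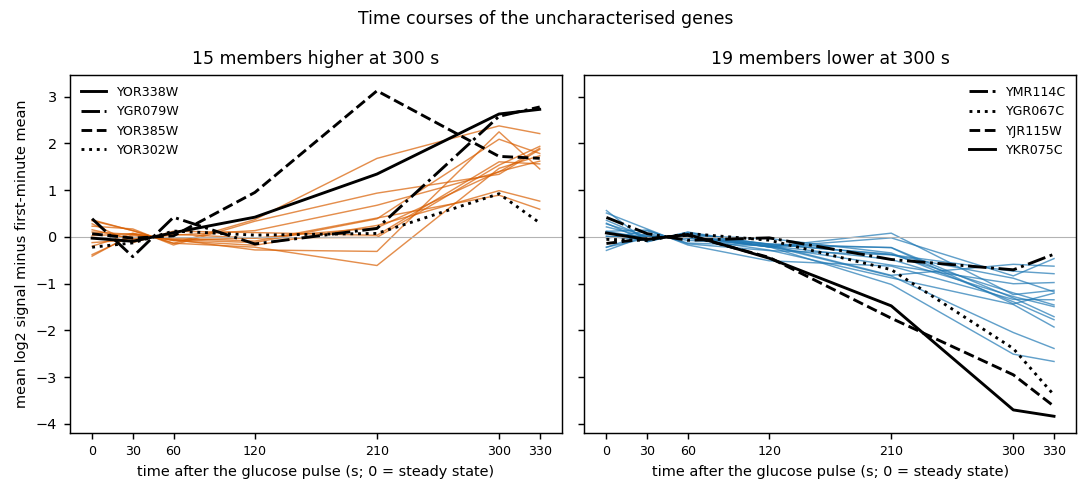
Mean log2 signal at each time minus the mean of the 4 first-minute arrays, for the 15 genes higher (left) and 19 lower (right) at 300 s, against time in s with 0 for the steady state. Each line is 1 gene, 4 of them in black in each panel; the 210 s point is 1 array, and at 120 s the lines lie between YJL132W at -0.51 and YOR385W at 0.95.

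The array at 210 s could be compared with the 120 s array of the same replicate and day, 1 array each, with no test. On the higher side 7 of 15 genes stood more than 1.5-fold above 120 s, beside 4.29% of all tested genes, and on the lower side 5 of 19 stood more than 1.5-fold below it, beside 4.16%. No gene of the set moved 1.5-fold in the opposite direction, and 29 of 34 had the sign seen at 300 s. The ratio was 3.72 for YOR385W, 2.92 for YBL029W, 2.10 for YDR222W, 1.95 for YOR338W and 1.77 for YML108W. Downward it was 2.27-fold for YKR075C, 2.15-fold for YJR115W, 2.00-fold for YPL113C, 1.66-fold for YIR016W and 1.56-fold for YGR067C. These 5 are also the 5 genes with the largest differences at 300 s on the lower side. Other genes stood close to their 120 s value. YML018C read 227 at 210 s and 207 at 120 s, and YHR140W read 60.6 at 210 s and 57.3 at 120 s. YJL132W read 36.2 at 210 s and 36.4 at 120 s, but its mean at 120 s already stood at -1.02 against the steady state, as a description.

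**Figure D4:**
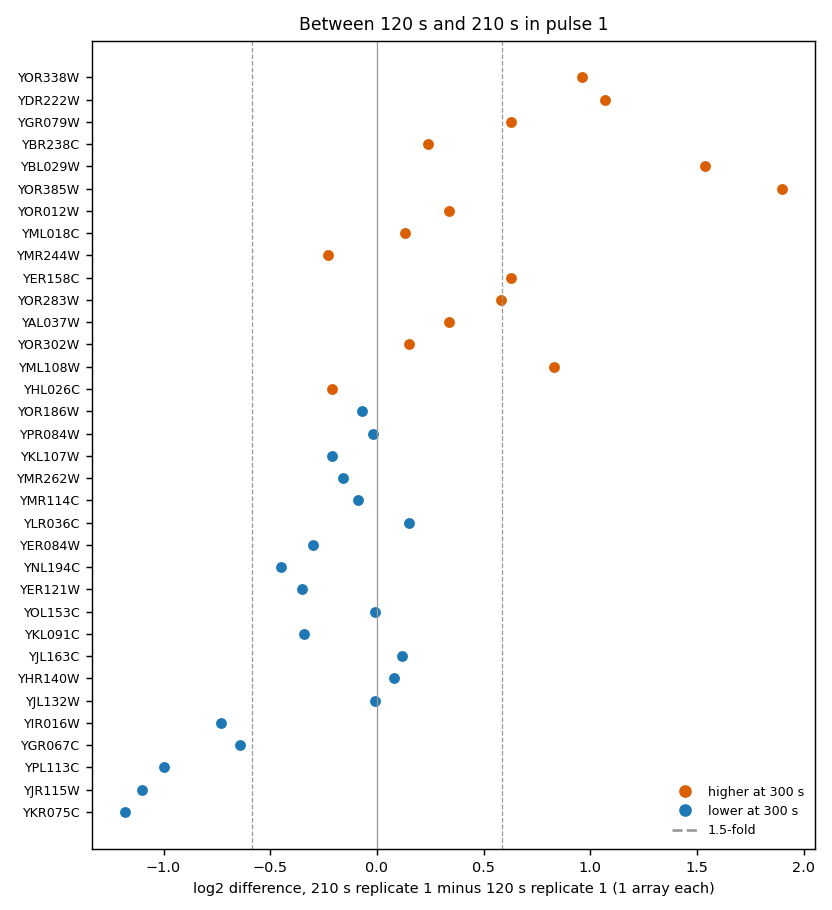
Log2 difference between the 210 s and the 120 s array of replicate 1 for each of the 34 genes, in the order of their difference at 300 s, 1 array each. Dashed lines mark 1.5-fold; 7 genes lie right of the upper line, led by YOR385W at 1.90, and 5 lie left of the lower one, led by YKR075C at -1.18.

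Most of the movement fell between 120 s and 330 s. In that comparison 29 of the 34 genes changed, 13 rising and 16 falling (limma), where 14.3% of all tested genes rose, 19.9% fell and 34.1% did either. Over all genes 773 rose and 1074 fell here, and 815 and 1105 did so after quantile normalization, but 894 and 879 after median centring. After either rescaling 13 genes of the set rose and 15 fell. The median was 1.73 on the higher side and -1.30 on the lower side, with -0.10 for all tested genes. The largest differences were those of YKR075C at -3.38 ± 0.28, YGR067C at -3.31 ± 0.19, YJR115W at -3.18 ± 0.18 and YGR079W at 2.93 ± 0.29 (SE; limma adjusted p = 4.13e-07, 7.98e-09, 6.15e-09 and 2.51e-06). The 5 genes that did not pass were YOR385W at 0.73 ± 0.41, YOR302W at 0.26 ± 0.20, YER084W at -0.46 ± 0.34, YMR114C at -0.35 ± 0.27 and YLR036C at -0.24 ± 0.18. From 300 s to 330 s the means moved further from steady state in 14 of 19 genes on the lower side and in 7 of 15 on the higher side, as a description. The log2 difference between 330 s and 300 s was -1.0 for YGR067C and -0.67 for YJR115W, in the direction they had already taken. It was -0.79 for YBR238C and -0.62 for YOR302W, against theirs.

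For 9 of the 34 genes a duplicate elsewhere in the genome is known from sequence, and for YOR302W its downstream partner CPA1 was taken, a list drawn up from background knowledge after the 34 were known. Between the first minute and 330 s, 2 of the 9 duplicates changed in the same direction as their partner, 4 in the opposite one and 3 did not pass. All 6 that changed fell, as did 24% of all tested genes, while 15.9% rose. On the lower side, ECM13 fell 2.47-fold with YJR115W (log2 -1.31 ± 0.15, limma adjusted p = 1.05e-05), and FMP45, another Sur7-family gene, fell 2.62-fold with YNL194C (-1.39 ± 0.30, limma adjusted p = 0.00177). At 300 s against the steady state, as a description, ECM13 stood at -1.67 but FMP45 at -0.16. YOR062C, the duplicate of YKR075C, stood at -0.22 ± 0.50 (limma adjusted p = 0.768), with 106 and 95.2 at 330 s and 210.4, 28.1, 171 and 183 in the first minute. One of those 4 arrays, 30 s replicate 3, was far below the others. YOL036W, the duplicate of YIR016W, stood at -0.33 ± 0.18 (limma adjusted p = 0.161).

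On the higher side 4 genes rose while their duplicates fell. AFR1 fell 4.55-fold, with 32.4 and 23.8 at 330 s against 139.9, 108, 129 and 131 in the first minute (log2 -2.19 ± 0.17, limma adjusted p = 2.23e-07), while YER158C rose 1.51-fold. FUN19, the duplicate of YOR338W, fell 1.63-fold (log2 -0.71 ± 0.25, limma adjusted p = 0.0321). RMD9, the duplicate of YBR238C, fell 1.43-fold, with 160.4 ± 38.9 (SD, n = 2) at 330 s against 227 ± 12.4 (SD, n = 4) in the first minute. Its log2 difference was -0.52 ± 0.16 (limma adjusted p = 0.0153). THI74, a mitochondrial carrier-like gene repressed by thiamine and the duplicate of YML018C, fell 1.39-fold (log2 -0.48 ± 0.17, limma adjusted p = 0.037). YLR225C, the duplicate of YDR222W, stood at 0.44 ± 0.21 (limma adjusted p = 0.103). The differences between partners were not tested. As a description, 300 s minus the steady state was -1.38 for AFR1, -0.94 for FUN19, -0.79 for RMD9 and -0.71 for THI74. CPA1 rose 1.52-fold, with 1615 and 1901 at 330 s against 1083, 1158, 1236 and 1149.7 in the first minute (log2 0.60 ± 0.12, limma adjusted p = 0.00121), beside 0.30 ± 0.19 for its upstream frame YOR302W.

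**Figure D5:**
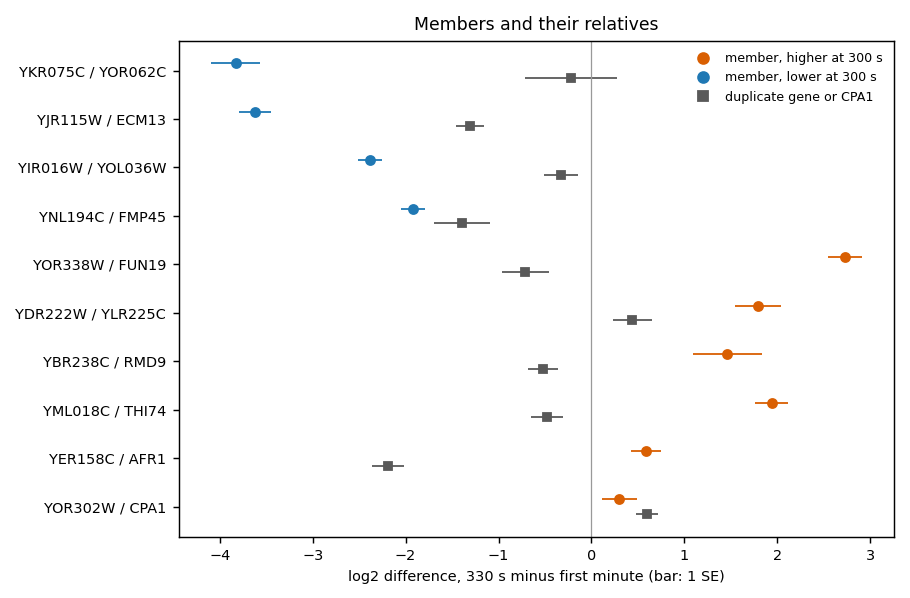
Log2 difference between 330 s (2 arrays) and the first minute (4 arrays) for 10 genes of the set (circles) and their duplicate, or CPA1 for YOR302W (squares), with bars for 1 SE. FUN19, RMD9, THI74 and AFR1 lie below 0 beside partners above it.

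The nearest gene on each side was read from the RefSeq gene order, and 56 of these 68 neighbours were tested. In the comparison of 330 s with the first minute, 19 neighbours changed in the direction that the gene of the set took at 300 s. Another 12 changed in the opposite direction and 25 did not pass (limma). Neighbours of YOR302W, YMR114C and YER084W are counted, although these genes did not pass in this comparison themselves. The 19 include CPA1, which lies on the same messenger RNA as YOR302W. Next to genes on the higher side, 9 of 26 neighbours (34.6%) rose and 7 (26.9%) fell, where 15.9% and 24% of all tested genes did. Next to genes on the lower side, 10 of 30 (33.3%) fell and 5 (16.7%) rose, where 24% and 15.9% of all tested genes did. Of 15 neighbours that are transcribed divergently, away from the same stretch of upstream DNA, 8 changed in the same direction, 1 in the opposite one and 6 did not pass. These 8 were 4 of 7 on the higher side and 4 of 8 on the lower side. On the lower side they include neighbours of YMR114C and YER084W, which did not pass themselves. No neighbour overlapped. PAC10, a prefoldin subunit gene divergent from YGR079W, rose by 1.36 ± 0.27 (limma adjusted p = 0.00086), and PLP2, a chaperone cofactor gene divergent from YOR283W, by 1.15 ± 0.16 (limma adjusted p = 5.16e-05). ZRC1, the vacuolar zinc transporter gene divergent from YMR244W, rose by 0.76 ± 0.15 (limma adjusted p = 0.00101). On the lower side ECM4, a glutathione transferase gene divergent from YKR075C, fell by 0.85 on the log2 scale (SE 0.20, limma adjusted p = 0.00326). PSP2, divergent from YML018C, is the 1 that went the opposite way, with -1.24 ± 0.33 (limma adjusted p = 0.0083). Described at 300 s against the steady state, PSP2 stood at 0.30, not below 0. There PAC10 stood at 1.03, PLP2 at 0.80, ZRC1 at 0.76 and ECM4 at -0.93.

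Neighbours in other arrangements changed too. TEA1, a transcription factor gene just upstream of YOR338W, rose by 1.98 ± 0.21 (limma adjusted p = 4.28e-06). YNL195C, next to YNL194C and itself without a functional name, fell by 2.01 on the log2 scale (SE 0.16, limma adjusted p = 2.23e-07), and TDA4, downstream of YJR115W, fell by 1.32 (SE 0.13, limma adjusted p = 1.61e-06). ERT1, a regulator of genes for non-fermentable carbon that lies upstream of YBR238C, rose by 1.00 ± 0.27 (limma adjusted p = 0.00727). YBL028C, convergent with YBL029W and just outside the choosing threshold, rose by 0.94 ± 0.21 (limma adjusted p = 0.00261). CRF1, a corepressor of ribosomal protein genes downstream of YDR222W, went the other way, with -1.44 ± 0.15 (limma adjusted p = 3.28e-06), as did RAX1 upstream of YOR302W with -1.30 ± 0.24 (limma adjusted p = 0.000611).

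The coding lengths of the 34 genes ran from 78 bp to 2415 bp, with a median of 937.5 bp beside 1230 bp for all tested genes. The median was 1068 bp on the higher side and 930 bp on the lower side, and none of these differences was tested. First-minute mean signals ran from 13.8 to 1064, and as probe sets differ in brightness they do not rank the genes.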

How the data were processed

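RNA of 16 chemostat samples was measured on Affymetrix YG_S98 arrays. The authors deposited 1 linear intensity per probe set and array, and the submitters' processing notes name GCOS, the Affymetrix software, without a version or settings. No detection calls were used. Of 9335 probe sets, 6504 carry 1 gene in the platform annotation, for 5656 genes. Each deposited intensity was rescaled to a 2%-trimmed array mean of 150, floored at 12 and turned into log2, and the probe set with the highest mean was kept per gene. The 5410 genes above the floor on at least 2 arrays were tested with limma 3.58.1 in R 4.3.3 (lmFit on group means of 15 arrays, contrasts, eBayes with a variance trend, Benjamini-Hochberg over all tested genes). The 210 s array entered no test. The procedure was tested on simulated data with noise drawn independently for each array. Shared days and pulse numbers were not simulated, so that test does not cover them.

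The members and lists were chosen with earlier results of these data known. The rule for named genes took the 10 largest differences at 300 s in each direction, genes passing at 120 s, genes with an opposite sign at 330 s, the 3 just inside and outside each threshold, and relatives and neighbours of these. The other 8 genes of the set, with YNL195C and PLP2 beside them, were named after their values were seen, to account for every member. Duplicate genes came from background knowledge, because protein and promoter sequences were not used here, so the planned search for relatives and motifs was not run. The number of arrays limits precision. Alternatives covered scaling, floor, filter, probe sets, variance model, blocks, thresholds and left-out arrays.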

Additional observations from a re-analysis of the deposited data

Results flagged for a closer look

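Each of the 34 genes was examined for single arrays that stand apart. The rule for an outlier among the 4 first-minute arrays flags about 1 in 20 such groups by chance. The 210 s readings below were not flagged by that rule, and no such rate applies to them. YOR385W read 601 at 210 s replicate 1, above all 15 other arrays. That array entered no test, and the next highest, at 481, was 300 s replicate 1. YHL026C read 31.7 at 210 s replicate 1, below all 15 other arrays, although the gene was higher at 300 s and rose at 330 s. Among the 4 first-minute arrays of YHL026C, 60 s replicate 2 read 36.2 and stood apart from the other 3, at 52.0, 53.8 and 54.2. For none of the 3 was a cause tested.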

How the results depend on the processing

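The count of 31 changed genes at 330 s against the first minute stayed between 29 and 31 under the alternatives other than left-out arrays, and the 29 between 120 s and 330 s stayed between 24 and 29. At 120 s against the first minute the count was 0 under each alternative (limma; 1 to 10 at an unadjusted p under 0.05, 5 without an alternative). With 1 array left out the counts ran from 24 to 31, from 22 to 29 and stayed at 0, the 24 being without 330 s replicate 1, where 1 lone array stands for that time. Without 300 s replicate 1, an alternative chosen after seeing the data, they were 31, 29 and 0. Choosing at the stricter of 2 other thresholds left 19 genes and at 0.8 gave 49; a floor of 6 gave 41 and of 24 gave 28, and leaving out 1 array gave 31 to 40. For 330 s against the first minute, where each gene was followed through 22 alternatives, no gene's difference reversed. Arrays with the same pulse number tended to deviate together: 20 of 31 same-numbered pairs had deviations correlated over 0.1 (range -0.202 to 0.425), and 12 of 15 arrays were closest on average to their own number. Many same-numbered pairs, all those of replicate 3 among them, also shared a day, so number and day cannot be told apart there. Steady-state replicate 2 and 300 s replicate 1, of different numbers but the same day, stood at 0.305. In groups of 2 arrays the deviations mirror each other, so the pairs are not independent. As the correlation did not hold for every same-numbered pair, the number was kept out of the fit given in the text. With the replicate block the counts were 31, 28 and 0, and steady-state and 300 s arrays enter that fit's differences in part. Besides the 330 s arrays, their array series held only steady-state replicate 1. With series as a block, 330 s is thus linked to the other times only through steady-state arrays. Those took part in the choice, so that alternative is not free of it. With array series as a block, 450 of all tested genes rose and 719 fell at 330 s against the first minute, beside 860 and 1296. Against 120 s these were 399 and 559, beside 773 and 1074. Without 330 s replicate 1 they were 566 and 845 against the first minute, and 507 and 665 against 120 s. At an adjusted p under 0.01 they were 579 and 856, and 515 and 681. Median centring moved the median of all genes at 330 s against the first minute to -0.02, beside -0.11. Day as a fixed block could not be fitted for 330 s, and as a random block gave 30, 28 and 0. The causes of these shifts were not tested. The floor limits how far dim genes can be seen to fall.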
